A study of Mus musculus with 11 samples.

Results

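The mRNAs of 3 genes were followed in mouse dorsal root ganglia (DRGs): *Gpr37l1*, the receptor gene that was knocked out, its closest paralogue *Gpr37*, and *Psap*, which encodes prosaposin, the precursor of a proposed ligand of both receptors. They were chosen by gene name, and each name matched 1 row of the 36670 genes deposited. The DRG contains sensory neuron cell bodies and the satellite glial cells (SGCs) that wrap them, and bulk poly(A) RNA was sequenced with 1 library per labelled sample. Of the 11 libraries, 6 came from WT mice, 3 of them controls and 3 treated with paclitaxel (PTX, a chemotherapy drug that causes neuropathic pain) and taken 4 weeks later. The other 5 came from mice lacking *Gpr37l1* (KO), with 3 controls and 2 at 4 weeks of PTX. In each group, replicate 3 was labelled female and the others male. The KO strain of the study was B6;129S5-Gpr37l1tm1Lex/Mmucd, a germline mutant kept with littermates on a C57BL/6 background, so every cell of a KO mouse carried the mutation. Adult mice were used in the study, while the age and PTX dose of the sequenced mice, and the part of the gene that the allele removes, are not given in the sources used here. Control mice are labelled Control with the letter V in their descriptions, whose meaning is not given, and the study calls its sequenced WT mice naive, so whether controls received a vehicle is not known. The label numbers were taken as separate mice, and if some shared a source the p-values would measure technical spread in part.

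GPR37L1 and GPR37 are related class A G protein–coupled receptors that resemble endothelin receptors in sequence. GPR37L1 is known from astrocytes and SGCs, and GPR37 from oligodendrocytes, neurons and macrophages. Prosaposin is a secreted and lysosomal protein. Inside the lysosome it is cut by cathepsins into saposins A, B, C and D, small proteins that present sphingolipids to their hydrolases, and outside the cell the intact protein or its peptides have been proposed to act on both receptors.

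Estimated counts summed to 52735648 to 80348732 per library, with a median of 75538569, and both KO PTX libraries lay at the low end (54914928 and 56747335). Levels are given as FPKM, the estimated fragments per kilobase of transcript scaled to library size, which allows genes to be compared per length. All 6 SGC markers and all 10 sensory neuron markers examined were above 0 in every library. Summed SGC markers were 973 to 1410 FPKM, sensory neuron markers 4840 to 5960 FPKM and skeletal muscle markers 3.05 to 518 FPKM per library. Markers of central glia varied between libraries. The 7 oligodendrocyte markers summed to 2.58 and 11.4 FPKM in KO PTX mice 2 and 3, against 0.43 to 0.70 in KO controls, 0.52 to 2.27 in WT PTX mice and 0.34 to 2.96 in WT controls, and *Opalin* was at 0 in every KO control. Only KO PTX mouse 3 lay above the range of the WT libraries.

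In the annotation of the GRCm38 (mm10) genome, *Gpr37l1* (ENSMUSG00000026424) spans chr1:135160234-135167681 on the minus strand and has 1 transcript of 2 exons and 2269 bases, with the coding sequence split over both exons. *Gpr37* (ENSMUSG00000039904) spans chr6:25665878-25690729 on the minus strand, with 2 transcripts of 2 and 3 exons. *Psap* spans chr10:60277627-60302597 on the plus strand, with 5 transcripts of 14 or 15 exons, 1 of which holds an extra coding exon of 9 bases at chr10:60297537-60297545. The deposited values are per gene and do not separate the *Psap* transcripts. None of the 3 genes overlapped another annotated gene. Of the 2239 stretches of 31 bases in the *Gpr37l1* transcript, 0 occurred in a transcript of any other gene on either strand, and the same was true of 0 of 2795 stretches in *Psap*. For *Gpr37*, 55 of 5932 stretches (0.927%) occurred elsewhere, none of them in *Gpr37l1* or *Psap*.

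The 250 bases before the RefSeq start of the steadiest and the least steady of the 3 genes in WT mice are shown for context (RefSeq on GRCm38.p6, 5′ to 3′ on the gene's strand). Capitals mark a match to TGANTCA, the letters bound by AP-1 factors.
Gpr37l1, chr1:135167682-135167931, minus strand: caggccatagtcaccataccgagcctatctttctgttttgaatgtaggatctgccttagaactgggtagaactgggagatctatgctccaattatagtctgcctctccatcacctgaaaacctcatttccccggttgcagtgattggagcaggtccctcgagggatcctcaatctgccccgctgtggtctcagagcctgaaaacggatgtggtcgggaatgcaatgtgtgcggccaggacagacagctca
Psap, chr10:60277378-60277627, plus strand: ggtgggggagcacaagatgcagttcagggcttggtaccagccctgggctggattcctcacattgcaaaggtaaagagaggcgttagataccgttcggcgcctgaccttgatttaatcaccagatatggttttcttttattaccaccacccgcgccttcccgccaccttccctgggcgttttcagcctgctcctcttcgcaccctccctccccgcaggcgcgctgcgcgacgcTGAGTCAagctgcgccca
The window of *Gpr37l1* held 7 CpG and 52.0% G or C, and that of *Psap* held 16 CpG and 58.8% G or C, against a median of 6 CpG over 32851 windows of the same length. Searched on both strands, TGANTCA occurred 1 time before *Psap* and 0 times before *Gpr37l1*, and 6.75% of all windows hold it. Of the other motifs searched, the E-box CACGTG is held by 6.02% of all windows, while the GC box GGGCGG is held by 32.7%. The TATA box TATAAA is held by 12.4% of windows, and none of these 3 was found before either gene. These are letters in a reference window, and no binding was measured.

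In WT mice the 3 genes lay at very different levels. *Psap* ranked between 44 and 49 of all genes by FPKM in each of the 11 libraries. *Gpr37l1* ranked between 1281 and 3242 in WT libraries, and *Gpr37* between 9607 and 10491 in all libraries. Within each WT mouse the FPKM of *Gpr37l1* was 6.2 to 16.5 times that of *Gpr37*, and the mean log2 ratio of (FPKM + 1) was 3.01 ± 0.45 (SD, n = 6), higher in 6 of 6 mice (p = 0.0312 by an exact two-sided permutation of signs, the smallest it can give). *Psap* was 16.0 to 38.1 times *Gpr37l1* in the 6 WT mice and 197 to 273 times *Gpr37* in all 11 mice. In KO mice the order of the 2 receptors was turned around. The knockout fixes this order in advance, so the test on it is no separate result. *Gpr37l1* was 0.0811 to 0.406 times *Gpr37* in FPKM there, lower in 5 of 5 mice, with a mean log2 ratio of -1.28 ± 0.29 (SD, n = 5; p = 0.0625 by the same exact permutation, the smallest 5 mice allow).

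**Figure D1:**
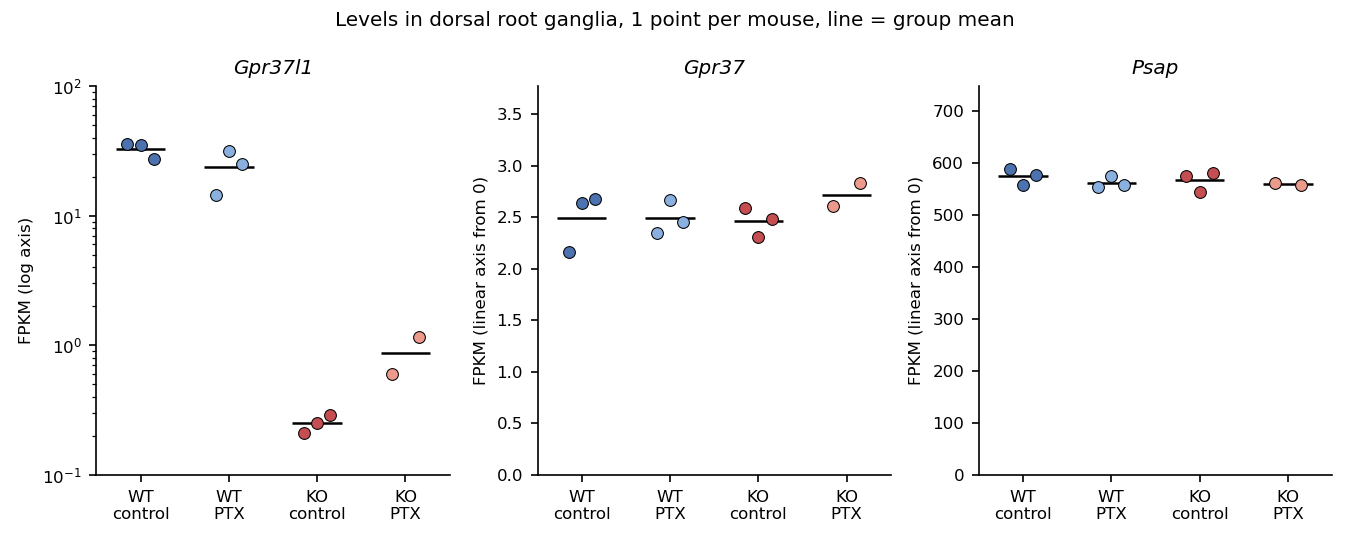
FPKM of *Gpr37l1* (log axis), *Gpr37* and *Psap* (linear axes from 0) in each mouse, with 1 point per library and a line at the group mean. The 5 KO points of *Gpr37l1* lie between 0.21 and 1.15 FPKM, all below the lowest WT point at 14.56, while the groups of *Psap* lie between 544.96 and 588.85.

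The loss of *Gpr37l1* checked the genotype labels. *Gpr37l1* was at 35.70, 34.88 and 27.57 FPKM in WT controls (32.7 ± 4.48, SD, n = 3) and at 0.21, 0.25 and 0.29 FPKM in KO controls (0.25 ± 0.040, SD, n = 3). After PTX it was at 14.56, 31.73 and 25.03 FPKM in WT mice (23.8 ± 8.65, SD, n = 3) and at 0.60 and 1.15 FPKM in KO mice. Every KO library was far below every WT library, and the lowest WT value was 12.7 times the highest KO value. The log2 fold change of KO against WT was -7.03 ± 0.37 (SE) in controls (edgeR, adjusted p = 4.53e-05) and -4.79 ± 0.39 (SE) after PTX (edgeR, adjusted p = 0.00173). Over both treatments, KO and WT differed with p = 0.005 (exact two-sided permutation within treatment, n = 5 and 6), the smallest of 200 arrangements. In controls, edgeR called 1 of 15087 genes tested, *Gpr37l1* itself (0.00663%), and after PTX it was 1 of 2 genes called (0.0133%), the other being *Pde10a*. With only the 2 PTX groups in the fit, the log2 fold change after PTX was -4.86 and its adjusted p was 0.059 by edgeR. DESeq2 called 42 and 10 genes in these comparisons (0.278% and 0.0663%). KO and WT values did not overlap for 9.28% of genes in controls, 20.2% after PTX and 0.325% over all mice.

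A low count of *Gpr37l1* remained in every KO library. It amounted to 39, 48 and 56 estimated counts in KO controls and to 81 and 160 in KO PTX mice 2 and 3. Relative to the WT mean of the same treatment, the FPKM was 0.64%, 0.76% and 0.89% in KO controls and 2.52% and 4.84% after PTX. In CPM, counts scaled to the total of the library, the signal was 0.516 (95% Poisson interval 0.367 to 0.705), 0.610 (0.450 to 0.809) and 0.727 (0.549 to 0.944) in KO controls and 1.48 (1.17 to 1.83) and 2.82 (2.40 to 3.29) after PTX. The intervals of the 3 KO controls overlapped, whereas those of both PTX libraries lay above them and apart from each other. Such intervals cover counting error only, and for estimated counts, which need not be tallies of fragments, they are an approximation even of that. Which exons these counts fall on was not analysed here, since the values are per gene.

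The residual signal was higher in the PTX libraries without passing the test across all genes. Mean FPKM was 3.5 times as high in KO PTX mice as in KO controls. The log2 fold change was 1.77 ± 0.39 (SE, 95% interval 0.89 to 2.64), with an unadjusted p of 0.00109 and an adjusted p of 0.999 by edgeR, and an adjusted p of 0.0319 by DESeq2 for a log2 fold change of 1.75, where DESeq2 called 0.192% of genes. For the exact two-sided permutation test on log2(FPKM + 1), p = 0.1, the smallest that 2 against 3 mice allow. Both KO PTX values lay above all 3 KO controls, a separation seen in either direction for 21.6% of genes. Without KO PTX mouse 3 the log2 fold change was 1.24, and without KO PTX mouse 2 it was 2.22.

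Summed markers of central nervous system glia were also higher in both KO PTX libraries than in KO controls. Only the sums of KO PTX mouse 3 lay above those of all WT libraries. The 4 markers of central astrocytes, cells known to express *Gpr37l1*, summed to 6.71, 7.41 and 5.93 FPKM in KO controls 1, 2 and 3 and to 9.06 and 19.6 FPKM in KO PTX mice 2 and 3. They summed to 4.58 to 7.39 in WT controls and 5.88 to 9.13 in WT PTX mice. All 4 were above 0 in every library, including KO controls 2 and 3, where the oligodendrocyte marker *Mog* was at 0. The glutamate transporter gene *Slc1a2*, on the astrocyte list, was at 0.38, 0.42 and 0.30 FPKM in KO controls and at 2.26 and 4.98 FPKM in KO PTX mice. It reached 1.90 FPKM in WT controls and 1.74 FPKM in WT PTX mice. *Aqp4*, on the same list, was at 1.52, 2.19 and 1.96 FPKM in KO controls and at 2.29 and 3.54 FPKM in KO PTX mice. *Agt* overlapped, at 2.51 to 3.65 against 3.01 to 5.75 FPKM, while *Slc6a11* did not, at 1.15 to 1.35 against 1.50 to 5.37 FPKM. A separation of KO PTX mice from KO controls was seen in either direction for 21.6% of genes. In WT PTX mice *Aqp4*, *Agt* and *Slc6a11* reached 2.51, 3.09 and 1.79 FPKM, above the lower KO PTX value of each. *Mobp*, a myelin gene of oligodendrocytes, was at 0.07, 0.25 and 0.12 FPKM in KO controls and at 1.16 and 6.11 FPKM in KO PTX mice. It reached 1.57 FPKM in WT controls and 1.17 FPKM in WT PTX mice. KO PTX mouse 3 had both the highest residual *Gpr37l1* and the highest marker sums of all libraries, but the order of the 3 KO controls was not the same for *Gpr37l1* and for the astrocyte sum. The part of these cells in the residual signal was not tested.

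**Figure D2:**
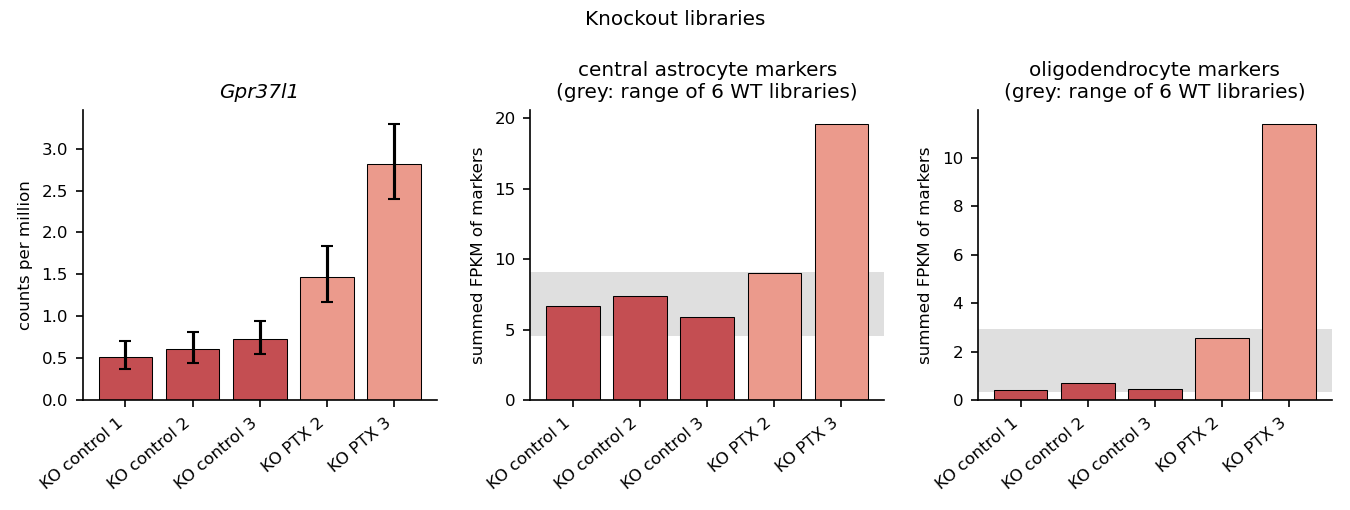
The 5 KO libraries, with *Gpr37l1* in CPM (bars with 95% Poisson intervals) beside the summed FPKM of central astrocyte and oligodendrocyte markers (bars, with the range of the 6 WT libraries in grey). KO PTX mouse 3 is the highest in all 3 panels, at 2.82 CPM, 19.6 FPKM and 11.4 FPKM.

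In WT mice, *Gpr37l1* mRNA was lower on average after PTX, but the groups overlapped. The PTX mouse at 31.73 FPKM was above the control at 27.57 FPKM, and PTX mouse 1 was the lowest WT library at 14.56 FPKM. The log2 fold change was -0.48 ± 0.27 (SE, 95% interval -1.08 to 0.12, edgeR, unadjusted p = 0.108, adjusted p = 0.449), and the exact two-sided permutation test gave p = 0.2, where 0.1 is the smallest that 3 against 3 mice allow. Single mice decided the size: it was -0.21 without PTX mouse 1, -0.84 without PTX mouse 2 and -0.71 without control mouse 3. Over the 6 WT libraries *Gpr37l1* had a coefficient of variation (CV) of 27.9%, higher than that of 87.3% of the genes tested. Of the 6 SGC markers, *Glul*, *Apoe* and *Slc1a3* were also lowest in PTX mouse 1 among the WT PTX mice and the other 3 were not. All 6 together summed to 1020 FPKM in PTX mouse 1 against 1200 and 1090 in PTX mice 2 and 3, and *Apoe* made up most of each sum. *Apoe*, an apolipoprotein gene, was at 731.49 FPKM in PTX mouse 1 against 888.50 and 860.27. *Kcnj10*, which encodes the inward rectifier Kir4.1 of SGCs, was at 16.80 FPKM there against 16.58 and 16.81 in PTX mice 2 and 3, and *Fabp7*, an SGC fatty acid-binding protein gene, was at 163.93 FPKM against 182.58 and 98.69. Between the groups, *Fabp7* had a mean of 148 FPKM after PTX against 196 in controls (log2 fold change -0.42 ± 0.11, SE, edgeR, unadjusted p = 0.0026, adjusted p = 0.227). The other SGC markers did not share a fall of this size. *Glul*, *Gja1* and *Slc1a3* had log2 fold changes of 0.095, 0.056 and 0.017, and *Kcnj10* and *Apoe* of -0.074 and -0.11. The median of the 6 was -0.0285, against -0.00577 over all genes tested. Bulk RNA cannot tell fewer SGCs from less *Gpr37l1* mRNA per cell.

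The estimated change of *Gpr37l1* with PTX had opposite signs in the 2 genotypes, but the interval in WT mice included 0 and the difference between the genotypes did not pass the threshold. The interaction was 2.24 ± 0.47 (SE, 95% interval 1.19 to 3.30) on the log2 scale, with an unadjusted p of 0.000776 and an adjusted p of 0.724 by edgeR. Of 15087 genes, edgeR called 1 for the interaction (0.00663%), and likewise 1 in each of the PTX comparisons (0.00663% in WT and 0.00663% in KO mice), and none of these was one of the 3 genes. With no correction, 6.3%, 13.5% and 4.32% of all genes had p under 0.05. In KO mice the change is one of a residual of at most 1.15 FPKM.

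The study's loss of GPR37L1 raises the question of whether the paralogue's mRNA differed as well. No difference of *Gpr37* between the genotypes passed the test. It was at 2.16, 2.64 and 2.68 FPKM in WT controls (2.49 ± 0.29, SD, n = 3), 2.35, 2.67 and 2.45 in WT PTX mice (2.49 ± 0.16, SD, n = 3), 2.59, 2.31 and 2.48 in KO controls (2.46 ± 0.14, SD, n = 3) and 2.61 and 2.83 in KO PTX mice. Each library held 751 to 1363 estimated counts of it. The 2 control groups and WT PTX overlapped, and the KO PTX mice lay above all KO controls, as in 21.6% of genes in either direction, without lying above all WT mice. The fold of KO over WT was 0.988 in controls (95% interval 0.84 to 1.16, edgeR, adjusted p = 0.971) and 1.09 after PTX (0.91 to 1.30, edgeR, adjusted p = 0.993). Over both treatments the exact two-sided permutation test gave p = 0.425 (n = 5 and 6). A rise of *Gpr37* mRNA beyond 1.16-fold in whole ganglia of KO controls lies outside the interval, whereas a smaller change cannot be told from none. The study reported *Gpr37* in neurons and not in SGCs of mouse DRGs. Bulk RNA does not separate these cells, so the interval sets no bound on a change within SGCs.

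No difference of *Gpr37* with PTX passed the test either. The fold of PTX over control was 0.997 in WT mice (95% interval 0.85 to 1.17, edgeR, adjusted p = 0.989) and 1.10 in KO mice (0.91 to 1.32, edgeR, adjusted p = 0.999), and the interaction was 0.14 ± 0.16 (SE) on the log2 scale (edgeR, adjusted p = 0.822). Both genotypes together gave p = 0.315 by exact two-sided permutation (n = 5 and 6). The 2 KO PTX mice, the highest of the KO mice in *Gpr37*, were also the highest KO mice in oligodendrocyte markers, cells known to express *Gpr37*. WT control 1 had the highest oligodendrocyte sum among WT mice, 2.96 FPKM, and the lowest *Gpr37*, 2.16 FPKM. The 10 sensory neuron markers summed to 5150 and 4970 FPKM in KO PTX mice and to 4850 to 5590 FPKM in KO controls. The part of these markers in the level of *Gpr37* was not tested.

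**Figure D3:**
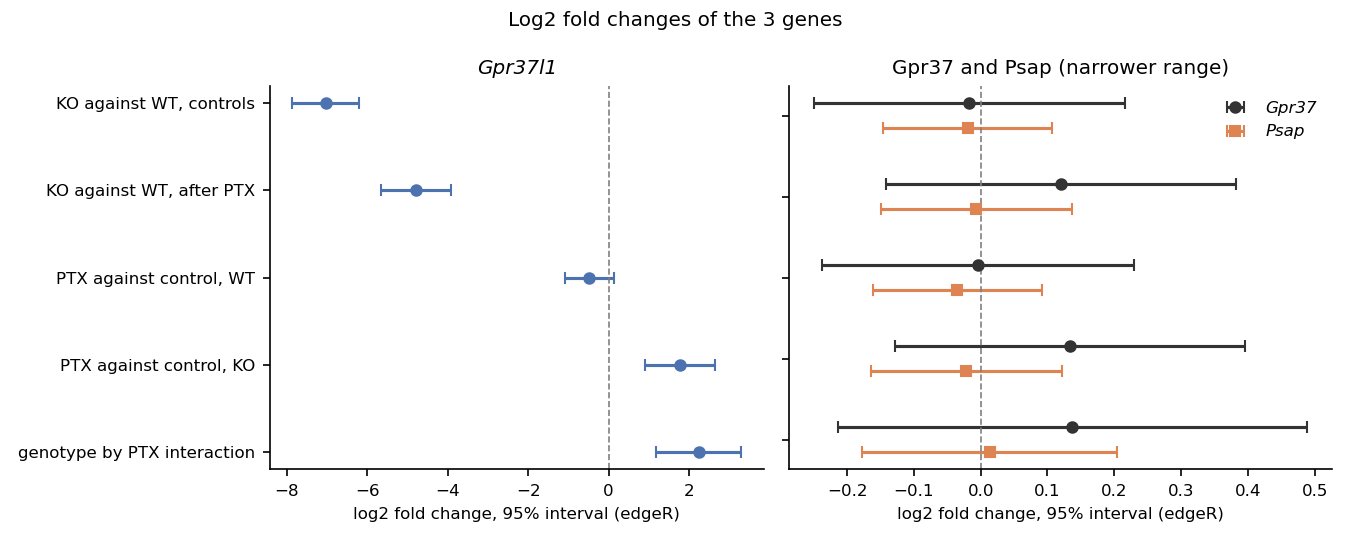
Log2 fold changes from edgeR with 95% intervals, not adjusted for the number of genes, for *Gpr37l1* (left) and for *Gpr37* and *Psap* (right, narrower range) in the 4 comparisons and the interaction of genotype and PTX. The intervals of *Gpr37l1* exclude 0 in all but PTX in WT mice, and those of *Gpr37* and *Psap* include 0 throughout.

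*Psap* was abundant and nearly constant. It was at 588.85, 557.12 and 578.14 FPKM in WT controls (575 ± 16.1, SD, n = 3), 554.91, 575.12 and 557.23 in WT PTX mice (562 ± 11.1, SD, n = 3), 575.38, 544.96 and 581.35 in KO controls (567 ± 19.5, SD, n = 3) and 561.30 and 558.15 in KO PTX mice. All groups overlapped. The fold of KO over WT was 0.987 in controls (95% interval 0.90 to 1.08, edgeR, adjusted p = 0.929) and 0.996 after PTX (0.90 to 1.10, edgeR, adjusted p = 0.996). The fold of PTX over control was 0.976 in WT mice (0.89 to 1.07, edgeR, adjusted p = 0.80) and 0.985 in KO mice (0.89 to 1.09, edgeR, adjusted p = 0.999). Exact two-sided permutation tests gave p = 0.54 for genotype and p = 0.275 for PTX over all mice (n = 5 and 6).

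The spread of *Psap* over the 11 mice was among the smallest of all genes. Its CV was 2.42%, against a median of 11.3%, and only 6 of the 15087 genes tested (0.0398%) had a lower CV, namely *Copg1*, *Zfp639*, *Cpne6*, *Paip2*, *Hadha* and *Pip4k2c*. All 6 had a lower mean level than *Psap*, from 4.99 to 90.7 FPKM. Among the 337 genes with a mean of at least 100 FPKM, whose median CV was 8.0%, *Psap* had the lowest. On CPM scaled by TMM its CV was 2.27%, again with 6 genes lower. Without WT control 1 its CV was 2.16% in FPKM, with 11 genes lower, and 1.41% in TMM-scaled CPM, with 0 genes lower. Of the 337 genes, 2 were then lower in FPKM and 0 in TMM-scaled CPM. *Gpr37* had a CV of 7.73% over all mice, and 22.4% of genes were lower.

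**Figure D4:**
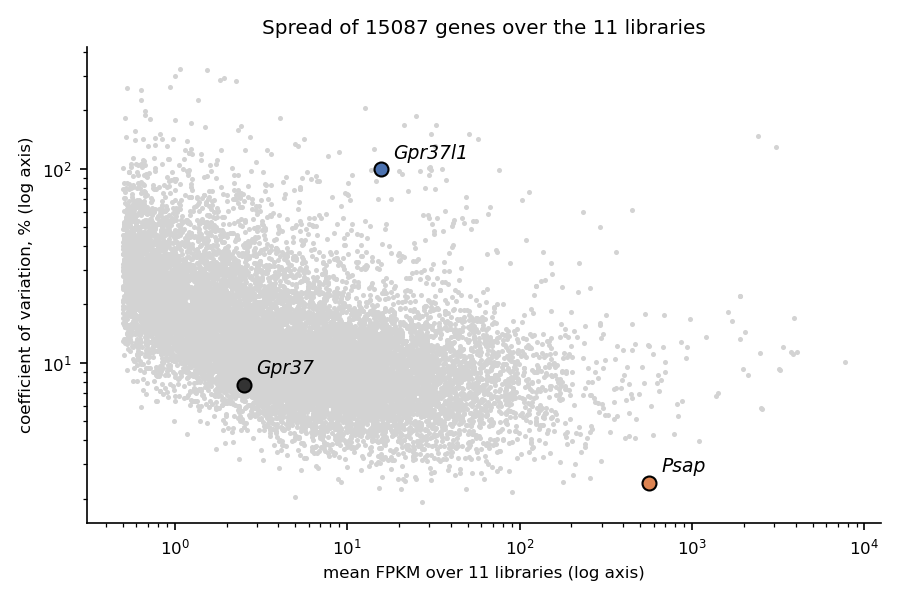
CV of the FPKM over 11 libraries against mean FPKM for 15087 genes (grey points, both axes log), with the 3 genes marked. *Psap* lies at the lower edge with a CV of 2.42%, *Gpr37* within the cloud at 7.73% and *Gpr37l1* at 99.3%, which includes the KO libraries.

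The levels of the 3 genes did not follow each other closely. Over the 6 WT libraries, *Gpr37l1* and *Gpr37* had a Pearson r of 0.178 and a Spearman rho of -0.0857, and *Gpr37l1* and *Psap* had an r of 0.566 and a rho of 0.6. Without the 2 libraries farthest from the median of *Gpr37l1*, r was 0.651 and -0.0431, so both values rest on few mice. Over all 11 libraries, *Gpr37* and *Psap* had an r of -0.0692 and a rho of 0.1 (r = 0.145 without 2 libraries). The genes most like each member, by Pearson correlation of log2(FPKM + 1), were *Zfp821*, *Cops5*, *Cars*, *Gm17081* and *Tmem132a* for *Gpr37l1* (r of 0.977 to 0.959 over 6 WT libraries, with 42 of 13102 genes above 0.9). They were *Tut4*, *Kif21b*, *Gab2*, *Carm1* and *Zfp507* for *Gpr37* (r of 0.965 to 0.867 over 11 libraries, 2 genes above 0.9). For *Psap* they included *Exosc5*, *Ccdc85b*, *C1qtnf5* and *Ubac2* (r of 0.946 to 0.934, 20 genes above 0.9). The points of each correlation share the libraries and their groups, and the values are descriptions of these few libraries.

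Genes around the 3 members were examined in lists of 40 genes, 37 of which were tested. By edgeR, 0 of the 37 were called in any of the 4 comparisons or the interaction. With no correction, p was under 0.05 for 3 of them between the genotypes in controls (7.54% of all genes), for 1 between the genotypes after PTX (3.55%), for 10 with PTX in WT mice (13.5%), for 1 with PTX in KO mice (4.32%) and for 2 in the interaction (6.3%). DESeq2 called 2 of them, both for PTX in WT, where it called 309 genes in all (2.05%), and limma on log2(FPKM + 1) called 0.

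Sorting and cleavage of prosaposin was covered by 8 genes. The most abundant were the cathepsin genes *Ctsd* and *Ctsb*, proteases of the lysosome, at a mean of 402 and 275 FPKM over all libraries. *Ctsd* was at 488.73, 438.19 and 399.37 FPKM in WT controls and at 382.98, 381.04 and 370.77 FPKM in WT PTX mice, without overlap, as for 14.2% of all genes. Its log2 fold change was -0.23 ± 0.073 (SE, edgeR, unadjusted p = 0.0113, adjusted p = 0.283). *Ctsb* was at 312.65, 298.01 and 272.55 FPKM in WT controls and at 258.36, 267.65 and 258.42 in WT PTX mice (log2 fold change -0.17 ± 0.064, SE, edgeR, adjusted p = 0.323). The median log2 fold change of the 8 genes with PTX in WT was -0.185, against -0.00577 over all genes tested, and 4 had an unadjusted p under 0.05, while the lowest adjusted p was 0.283. In KO mice the median was -0.0243, against -0.00889 over all genes. Macrophages also express cathepsins, and the summed FPKM of 7 macrophage markers was 28.7 to 38.6 in WT controls and 20.5 to 25.5 in WT PTX mice, with no marker at 0. The part of macrophages in these values was not tested. *Psap* itself had a log2 fold change of -0.035 ± 0.057 (SE) in the same comparison.

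Enzymes and activators that work with the saposins were covered by 11 genes, among them *Hexa*, for a hexosaminidase subunit, at a mean of 34.8 FPKM. The median log2 fold change of the list was 0.0161 for KO against WT in controls and -0.0207 for PTX in WT, against 0.00323 and -0.00577 over all genes, with 0 and 1 gene at an unadjusted p under 0.05.

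Receptor processing and signalling was covered by 11 genes, among them G protein subunits, arrestins and proteases. *Gnao1* and *Gnai2*, which encode inhibitory G protein subunits, were the most abundant, at a mean of 79.9 and 66.6 FPKM. *Arrb1*, which encodes β-arrestin 1, was at 29.03, 38.25 and 25.85 FPKM in WT controls, 24.83, 23.91 and 22.22 in WT PTX mice, 23.91, 25.72 and 22.44 in KO controls and 25.61 and 23.90 in KO PTX mice. WT controls were the high group. The log2 fold change was -0.39 ± 0.10 (SE) for PTX in WT (edgeR, adjusted p = 0.238, DESeq2, adjusted p = 0.0194) and -0.36 ± 0.10 (SE) for KO against WT in controls (edgeR, adjusted p = 0.657). Both comparisons use the same WT controls.

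*Kcnj3* and *Kcnj10* encode inward rectifier potassium channel subunits that the study examined together with GPR37L1. The study linked KCNJ10 to the receptor in mouse SGCs and a transfected human cell line. KCNJ3 was linked to it in human SGCs and the same cell line. In human SGCs the study reported GPR37L1 together with both channels. For mouse trigeminal ganglia it placed *Kcnj3* in neurons and not in SGCs. *Kcnj3* was at 4.46, 3.93 and 6.00 FPKM in WT controls, 6.31, 6.11 and 7.03 in WT PTX mice, 5.90, 5.41 and 6.38 in KO controls and 6.54 and 6.78 in KO PTX mice. WT controls 1 and 2 were the lowest libraries, and WT control 3 lay among the KO controls. The log2 fold change with PTX in WT was 0.44 ± 0.10 (SE, edgeR, adjusted p = 0.207, DESeq2, adjusted p = 0.00895), and that of KO against WT in controls was 0.31 ± 0.10 (SE, edgeR, adjusted p = 0.657), again against the same WT controls. *Kcnj10* had a mean of 17.4 FPKM over all libraries and a log2 fold change of -0.046 ± 0.14 (SE) for KO against WT in controls (edgeR, adjusted p = 0.937).

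The endothelin receptor genes *Ednrb* and *Ednra*, related to the 2 receptors in sequence, had means of 25.8 and 1.50 FPKM over all libraries. In WT controls and WT PTX mice, *Ednrb* had means of 24.9 and 25.6 FPKM, against 32.7 and 23.8 for *Gpr37l1*. *Ednra* had means of 1.44 and 1.47 FPKM there, below *Gpr37* at 2.49 in both groups. The log2 fold changes of *Ednrb* and *Ednra* for KO against WT in controls were 0.15 ± 0.15 and 0.12 ± 0.14 (SE, edgeR, adjusted p = 0.781 and 0.811). The study tested maresin 1, a lipid mediator, on GPR37L1. *Lgr6*, which encodes another receptor proposed for it, had a mean of 0.0955 FPKM, and the lipoxygenase genes *Alox5* and *Alox15* had means of 0.235 and 0.0245 FPKM, so these 3 fell below the filter. *Alox12* and *Ephx2*, for a lipoxygenase and an epoxide hydrolase, had means of 0.562 and 2.65 FPKM and were not called.

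**Figure D5:**
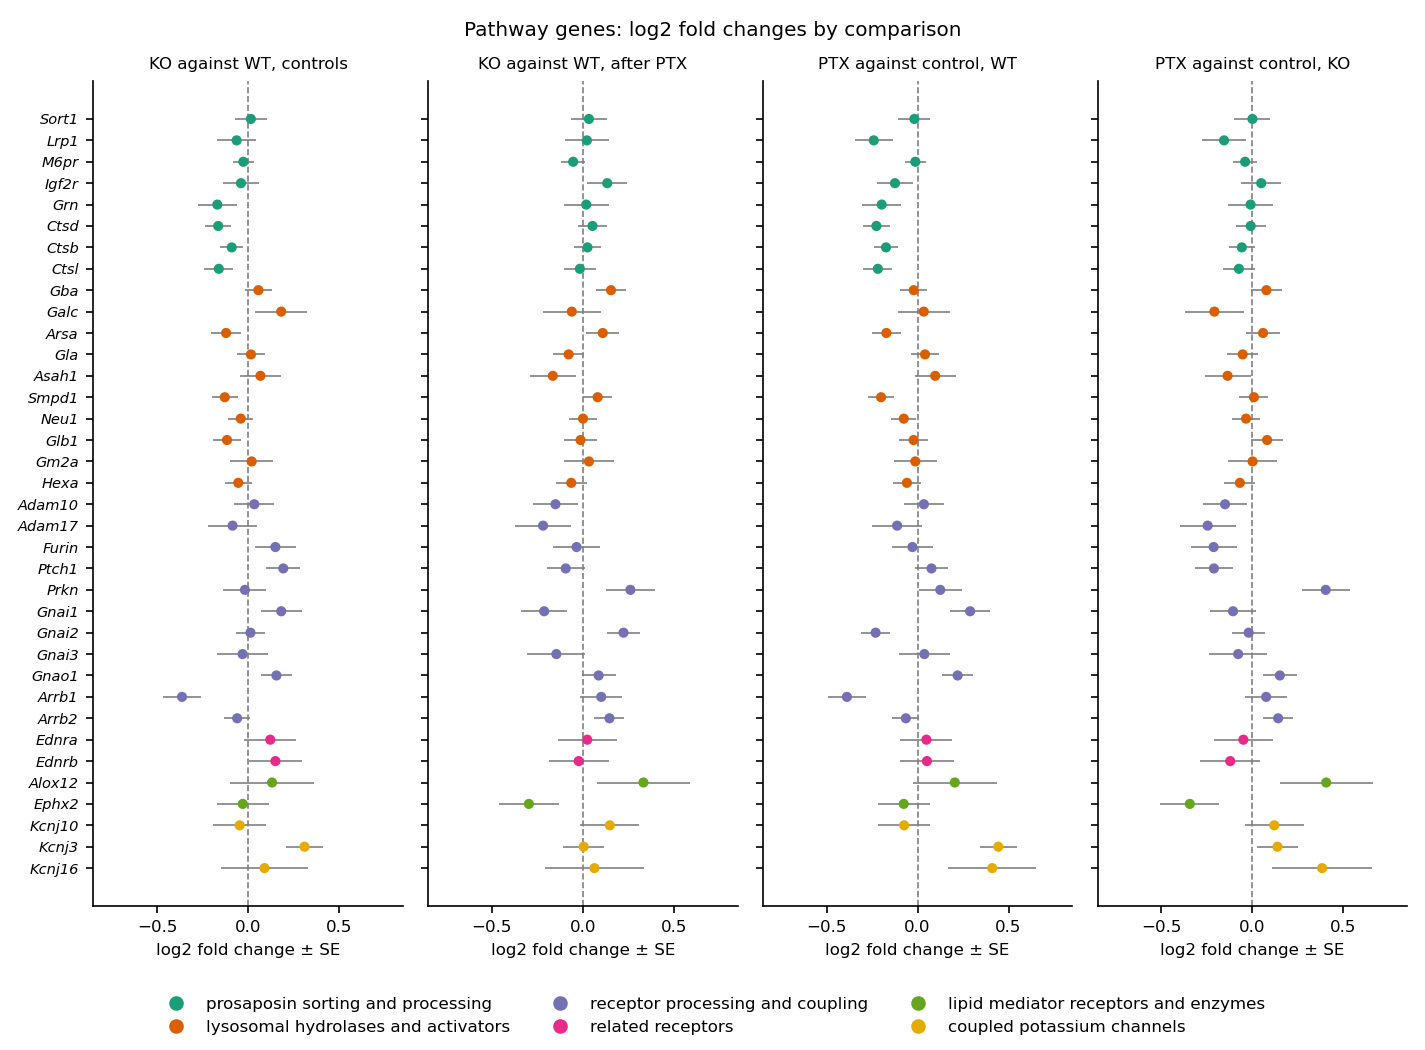
Log2 fold changes (points) with SE (bars) from edgeR for 36 of the 37 pathway genes tested, by list (colour), in the 4 comparisons. All lie within ±0.45, and none was called after adjustment over all genes.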

How the data were processed

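The deposited table holds, for 36670 genes, FPKM values scaled by the authors for transcript length and library size, and estimated counts deposited by the authors without normalization. The submitters' processing notes name cutadapt, FastQC, HISAT2, StringTie and mm10, and the versions are not given in the sources used here. Groups and replicate numbers came from the sample descriptions. The KO PTX libraries are 2 and 3 there but are numbered differently in their titles. The counts, rounded to whole numbers, were tested with edgeR 4.0.16 (R 4.3.3, TMM, quasi-likelihood) in 1 fit of all 11 libraries with labelled sex as a covariate, over 15087 genes (mean FPKM 0.5 or more), and p-values were adjusted over these genes by Benjamini-Hochberg at 0.05. SEs follow from the F statistics. Single genes were compared by exact permutation of log2(FPKM + 1). Poisson intervals are 95%. DESeq2 1.42.0, limma 3.58.1, RLE scaling, no filter, no sex term, a replicate block, only the compared groups and each library left out were alternatives. Names follow a rule: the 3 genes, the 5 genes most correlated with each (mean of at least 1 FPKM), the 2 most abundant genes of each list, list genes that passed a threshold, and defining markers. Some genes that the rule names are not reported here. *Pde10a* and the 6 genes of lower CV were named after their values were seen. The members, lists and tests were chosen with earlier results of these data known. Same-numbered libraries had correlated deviations in 5 of 15 pairs (r over 0.1). Their median r was 0.0619, against -0.0332 in 30 pairs with other numbers. The deviations were not adjusted for sex. Replicate 3 was the only female in each group, so a shared number cannot be told from shared sex in its pairs. The 2 KO PTX libraries deviate from their mean by equal and opposite amounts, so their r values mirror each other. The numbers were not treated as pairs in the main fit, and the replicate block is the alternative that uses them. Sequence stretches of 31 bases were compared over GENCODE M21 transcripts, in which 36532 of the genes were found. Tables and figures were made with scipy 1.17.1, pandas 2.3.3 and matplotlib 3.10.9 in Python 3.11.15.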

Additional observations from a re-analysis of the deposited data

Results flagged for a closer look

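The estimated changes of *Gpr37l1* mRNA with PTX differed between the genotypes before correction, with opposite signs and an interaction of 2.24 on the log2 scale (SE 0.47, edgeR, unadjusted p = 0.000776, adjusted p = 0.724). WT PTX libraries were at 14.56, 31.73 and 25.03 FPKM and overlapped WT controls at 35.70, 34.88 and 27.57 FPKM, so that no change was shown in WT mice (exact permutation, p = 0.2, n = 3 and 3). Both KO PTX libraries, at 0.60 and 1.15 FPKM, lay above all KO controls, as in 21.6% of all genes in either direction. Over the alternatives and with each library left out, the interaction ran from 1.06 to 2.69 and its adjusted p from 0.0647 to 0.988. The KO part of it is a residual signal that was highest in the library with the highest markers of central astrocytes and oligodendrocytes, and their part was not tested.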

How the results depend on the processing

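*Gpr37l1* kept its lower level in KO mice in both treatments under every alternative. It missed the threshold 1 time, after PTX with only the 2 compared groups in the fit (-4.86, edgeR, adjusted p = 0.059). Its change with PTX in KO passed the threshold by DESeq2 (1.75, adjusted p = 0.0319). In some comparisons the values of *Gpr37* and *Psap* lay so near 0 that their signs turned without a call. *Gpr37* kept its sign for KO against WT after PTX, for PTX in KO and for the interaction. *Psap* kept its sign for PTX in WT and for PTX in KO. *Gpr37* for PTX in WT was 0.0051 with no filter, 0.00099 by limma on log2(FPKM + 1) and 0.0025 on log2(FPKM + 0.1). *Psap* for KO against WT after PTX was 0.0015 with the replicate block, and its interaction was -0.013 with no filter. With the replicate block *Gpr37l1* was -0.52 for PTX in WT and 1.69 for PTX in KO, and no other call changed. DESeq2 called 42 and 10 genes for KO against WT in controls and after PTX, 309 and 29 for PTX in WT and KO, and 12 for the interaction, against 1, 2, 1, 1 and 1 by edgeR. With only the compared groups, edgeR called 5 genes after PTX, 5 for PTX in WT and 4 for PTX in KO. For PTX in WT, 2 genes were called with no filter, 0 by both limma fits and 0 without the sex term. The causes were not tested.

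With each library left out, *Gpr37l1* ran from -7.28 to -6.93 in controls, -5.31 to -4.33 after PTX, -0.84 to -0.21 for PTX in WT, 1.24 to 2.22 for PTX in KO and 1.71 to 2.69 for the interaction. *Gpr37* ran from -0.10 to 0.042, 0.080 to 0.18, -0.086 to 0.056, 0.094 to 0.19 and 0.073 to 0.23. *Psap* ran from -0.043 to 0.0099, -0.019 to 0.0062, -0.058 to -0.0042, -0.029 to -0.012 and -0.016 to 0.038. Genes called ran from 1 to 4, 2 to 7, 0 to 30, 1 to 7 and 1 to 6. The log2 ratio within WT controls ran from 3.13 to 3.42 for *Gpr37l1* over *Gpr37* and from 3.98 to 4.17 for *Psap* over *Gpr37l1*. The CV of *Psap* on TMM-scaled CPM and without WT control 1 was added after the data were seen. Where a library left out leaves 1 KO PTX mouse, that mouse is assumed to vary like the other groups. The 39 to 160 counts of *Gpr37l1* in KO libraries limit how firmly the residual signal can be compared.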

Other observations

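By labelled sex, the female WT control had a *Gpr37l1* level of 27.57 FPKM against 34.88 and 35.70 in the male mice, whereas the female WT PTX mouse, at 25.03 FPKM, lay between the male mice at 14.56 and 31.73. In KO mice the female libraries held the higher residual signal in both groups, 0.29 against 0.21 and 0.25 FPKM in controls and 1.15 against 0.60 after PTX. With 1 female mouse per group, sex was not tested, and it cannot be told apart from replicate number 3.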
